A study of Mus musculus with 24 samples.

Results

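The comparison described here set mouse dendritic cells labelled IRE1 knockout (KO) and treated with lipopolysaccharide (LPS) against wild-type (WT) dendritic cells treated with LPS. It used 8 of the 24 samples of the series, 4 KO and 4 WT, chosen by their labels for genotype and treatment, and covered all genes of the deposited count table. The other 16 samples were KO and WT cells that had received zymosan or nothing, in 4 groups of 4, and they entered the statistical model and a comparison near the end. Dendritic cells take up microbes and start T cell responses, and these were grown from mouse bone marrow. LPS is a bacterial cell wall component sensed by Toll-like receptor 4, and zymosan is a yeast cell wall preparation. The study as a whole asked how IRE1α and its target XBP1 affect prostaglandin production in leukocytes. The labels give no LPS dose, no treatment time, no mouse strain, age or sex, and neither the allele nor the cell types in which the gene was removed. They also do not say whether the replicates were separate mice or cultures, so the p-values below measure only the spread between these samples, which may be technical.

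IRE1α, encoded by Ern1, is a kinase and endoribonuclease in the membrane of the endoplasmic reticulum (ER), the compartment where secreted and membrane proteins are folded. Its ribonuclease cuts the Xbp1 mRNA, and after religation this mRNA encodes XBP1s, a transcription factor that switches on genes for ER protein import, folding, glycosylation, degradation and export. The same ribonuclease can degrade other mRNAs, a process called regulated IRE1-dependent decay. PERK and ATF6 are the other ER stress sensors, and PERK acts through the transcription factor ATF4 on amino acid genes. Prostaglandin E2 is made from arachidonic acid, which the phospholipase encoded by Pla2g4a releases from membranes, the cyclooxygenases encoded by Ptgs1 and Ptgs2 oxidise, and the synthase encoded by Ptges converts to the final product.

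Each of the 8 libraries held between 36778141 and 43253453 counts. Levels are given as CPM, counts scaled to a common library total, with a correction for library composition. On a principal component analysis of the 8 libraries the first component, with 44.4% of the variance, separated KO from WT, and the second, with 13.96%, separated replicates 1 and 2 from replicates 3 and 4 in both genotypes. Within KO, replicates 1 and 2 differed by a chi-square of 2.45 per gene and replicates 3 and 4 by 1.91, against 13.5 to 18.1 for the other KO pairs, where sampling noise alone gives about 1. Replicates 1 and 2 of WT differed by 3.58 per gene, replicates 3 and 4 of WT by 8.03 and the other WT pairs by 6.57 to 10.2. By this measure WT replicates 3 and 4 were no more alike than other WT pairs. Because of the likeness within KO and the second component, every result was also computed after adding replicate 1 to 2 and replicate 3 to 4. This left 2 samples in each group, and the setting is called summed pairs below.

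The targeted gene did not separate the genotypes by loss of reads. Ern1 (chr11:106394650-106487852, minus strand, GRCm38) had 41.8, 41.4, 37.6 and 36.6 CPM in the libraries labelled KO with LPS, against 29.9, 28.0, 29.0 and 27.1 CPM in WT with LPS. All 4 KO values lay above all WT values, and the log2 difference was 0.46 ± 0.05 (SE, edgeR adjusted p = 1.43e-07). The counts cover the whole gene, including exons that a partial deletion would leave in the mRNA, so they check nothing about the deletion itself. Xbp1 mRNA had 234 to 244 CPM in KO and 234 to 242 CPM in WT, with a log2 difference of -0.00 ± 0.05 (edgeR adjusted p = 0.973). Whole-gene counts do not tell spliced from unspliced Xbp1.

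Of 14188 genes tested, 2220 (15.6%) rose and 2585 (18.2%) fell in KO at a Benjamini-Hochberg adjusted p under 0.05 in edgeR's quasi-likelihood test, called "adjusted p" from here on. That is 33.9% of tested genes in either direction. In 4875 tested genes (34.4%), called or not, the KO and WT values of the 8 libraries did not overlap. A lack of overlap named for a gene below is to be read against that share. With summed pairs 863 genes (6.08%) rose and 1152 (8.12%) fell, and 2008 of these were also called, in the same direction, with the 8 libraries separate. Changes of more than 2-fold were fewer, at 146 genes higher (1.03%) and 196 lower (1.38%). The median log2 difference of all tested genes was 0.01, so a list of genes is read below against that median and against these percentages.

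Markers of other cell types differed between the genotypes. All 10 tested eosinophil markers fell in KO, with a median log2 difference of -4.07, and their summed level was 48.5 to 57.6 CPM in the 4 KO libraries against 1008 to 1082 CPM in the 4 WT libraries. Epx, the eosinophil peroxidase, had 0.802, 1.40, 0.616 and 0.716 CPM in KO and 165, 169, 157 and 174 CPM in WT, a log2 difference of -7.54 ± 0.16 (adjusted p = 2.40e-21). Every WT library was high for Epx and every KO library was close to 0. The falls were uneven across the list, and the smallest log2 difference was -0.18. The marker Siglecf had means of 12.3 CPM in KO and 13.9 CPM in WT. Prg2, the major basic protein of eosinophil granules, had 7.45 to 10.2 CPM in KO and 599 to 648 CPM in WT, a 74.5-fold lower mean. The eosinophil-associated ribonuclease Ear1 had 0.0749 to 0.176 CPM in KO and 50.8 to 60.8 CPM in WT (log2 difference -8.77 ± 0.14, adjusted p = 6.75e-24), while its relatives Ear6 and Ear2 were 7.56-fold and 4.76-fold lower. The Ear genes are near-identical copies, so reads may be shared among them. Of the 10 markers, 9 were called lower in KO with zymosan, 9 without stimulus and 9 with LPS in the summed pairs, and the Epx log2 differences with zymosan and without stimulus were -7.84 and -7.96. In these bulk samples, fewer cells of a type and less RNA per cell cannot be told apart.

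**Figure D1:**
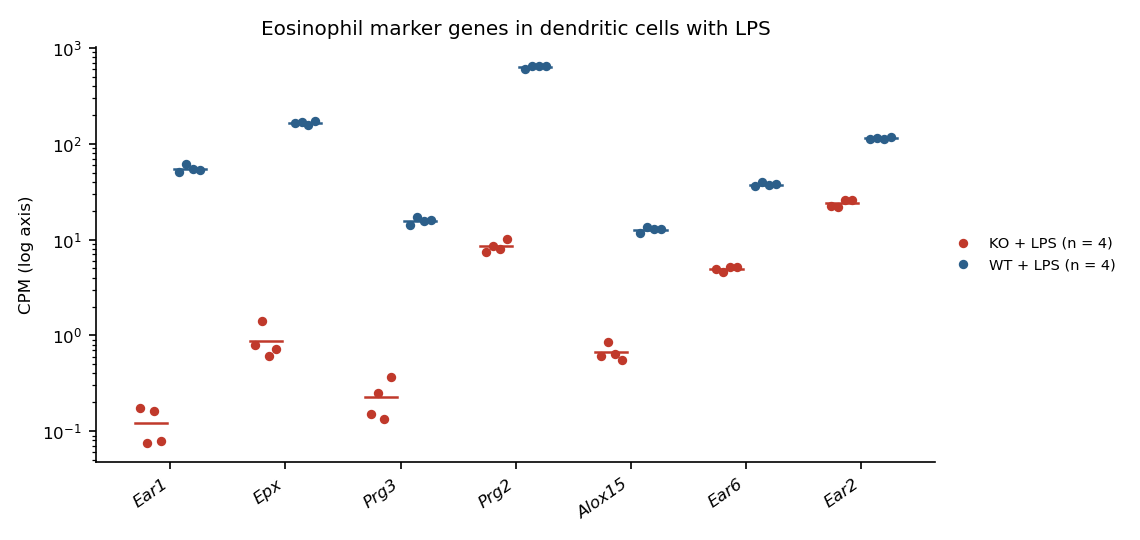
Level in CPM (log axis) of 7 eosinophil marker genes, with a point for each library, KO + LPS at left and WT + LPS at right of each gene, and a line at the mean of 4. The KO libraries sit below the WT libraries for each gene drawn, and Epx is at 0.616 to 1.40 CPM in KO and at 157 to 174 CPM in WT. Siglecf, with means of 12.3 CPM in KO and 13.9 CPM in WT, is not drawn.

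Other cell type lists had smaller median differences. Of 18 tested macrophage and monocyte markers 13 fell and 2 rose (median -0.38), and their summed level was 18574 to 20262 CPM in KO and 19832 to 20985 CPM in WT. Most of that sum was Lyz2, a lysozyme gene that was not called, at 14894 to 16383 CPM in KO and 14564 to 15509 CPM in WT. Without Lyz2, a split made after its values were seen, the list summed to 3680 to 3879 CPM in KO and 5249 to 5476 CPM in WT, and the groups did not overlap. Of 16 conventional dendritic cell markers 6 fell and 3 rose, and the integrin gene Itgax, which encodes CD11c, stood at 1025 to 1076 CPM in KO and 1076 to 1110 CPM in WT (log2 difference -0.06 ± 0.05, adjusted p = 0.427). Zbtb46, a transcription factor of conventional dendritic cells, had 18.4 to 20.3 CPM in KO and 18.6 to 19.9 CPM in WT. Cd24a, a surface glycoprotein of some dendritic cells, fell to 59.9 to 64.4 CPM in KO, against 105 to 115 CPM in WT. Other members of the list differed in both directions. Mean levels were higher in KO for Irf4 (320 CPM, 252 in WT) and Batf3 (28.6, 21.4 in WT). They were lower in KO for Irf8 (215 CPM, 282 in WT) and Sirpa (477, 590 in WT). Of 16 neutrophil markers 7 rose and 4 fell (1 and 2 with summed pairs), of 9 mast cell and basophil markers 2 rose and 2 fell, of 7 plasmacytoid dendritic cell markers 3 fell, and of 6 B cell markers none was called. Of 4 tested T and NK cell markers 1 rose and none fell (0 and 0 with summed pairs). The granzyme gene Gzmb had 105 counts in KO and 47 in WT, and Il2ra had means of 130 and 134 CPM. The T cell receptor gene Trbc2 and the granzyme gene Gzma had no count in any of the 8 libraries. Of 6 tested erythroid and platelet markers 2 fell, with the platelet integrin gene Itga2b at 5.01 to 7.37 CPM in KO and 9.02 to 9.86 CPM in WT, and of 7 stromal markers 2 fell. The shares called were 33.3% (erythroid and platelet), 28.6% (stromal) and 25% (T and NK cell), no higher than the 33.9% of all tested genes. For the mast cell and basophil list the share was 44.4%, and for the plasmacytoid dendritic cell list 42.9%. Higher shares were called in the macrophage and monocyte (83.3%), neutrophil (68.75%) and conventional dendritic cell (56.25%) lists. The part of these cell type differences in the results below was not tested.

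The promoters of 5 genes that carry the ER and amino acid results are shown first, because they hold elements of the factors named above. Each is the 150 bases before the RefSeq transcription start (GRCm38.p6), written 5′ to 3′ on the gene's strand, with the matched element in capitals. Sec24d, Pdia5 and Selenos hold letters of the XBP1 element (GCCACGT or GACGTGG, on either strand, which overlap by all but 1 base where both match), Creld2 holds the ER stress response element on the opposite strand, and Asns holds the C/EBP-ATF element TTNCATC on the opposite strand. The windows lie at chr3:123267346-123267495 (plus strand) for Sec24d, chr16:35490874-35491023 (minus) for Pdia5, chr7:66079499-66079648 (plus) for Selenos, chr15:88819496-88819645 (plus) for Creld2 and chr6:7693210-7693359 (minus) for Asns.
Sec24d: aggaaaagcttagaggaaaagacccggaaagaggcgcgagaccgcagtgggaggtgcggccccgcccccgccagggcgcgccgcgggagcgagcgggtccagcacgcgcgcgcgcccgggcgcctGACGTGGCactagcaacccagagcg
Pdia5: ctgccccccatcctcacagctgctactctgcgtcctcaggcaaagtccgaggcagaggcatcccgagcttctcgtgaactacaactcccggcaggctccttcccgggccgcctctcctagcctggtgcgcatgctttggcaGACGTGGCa
Selenos: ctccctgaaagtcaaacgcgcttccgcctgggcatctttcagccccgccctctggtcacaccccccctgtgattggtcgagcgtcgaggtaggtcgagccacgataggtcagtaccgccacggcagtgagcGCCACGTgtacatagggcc
Creld2: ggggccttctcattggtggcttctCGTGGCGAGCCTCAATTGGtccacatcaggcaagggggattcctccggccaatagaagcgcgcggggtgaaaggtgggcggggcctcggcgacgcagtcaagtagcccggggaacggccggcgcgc
Asns: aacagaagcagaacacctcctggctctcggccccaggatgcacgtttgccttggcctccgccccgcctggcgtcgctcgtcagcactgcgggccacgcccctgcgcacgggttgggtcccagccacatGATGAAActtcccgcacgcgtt
The elements begin 25 bases before the RefSeq start in Sec24d, 9 in Pdia5, 19 in Selenos, 126 in Creld2 and 22 in Asns. The gene positions given below come from GENCODE, which starts Sec24d and Asns further upstream, so their elements lie inside those positions.

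The machinery that imports, folds and exports proteins of the ER was lower in KO. Across 6 lists of ER genes, 93 of 107 tested members fell and 1 rose, with a median log2 difference of -0.47. The summed pairs gave 81 lower and 1 higher. Of 15 chaperones and co-chaperones all 15 fell (median -0.62, 12 with summed pairs), and of 11 protein disulfide isomerases and their partners 9 fell (median -0.68). The protein import channel, signal peptidase and translocon-associated proteins had 17 of 18 lower (median -0.57), and the oligosaccharyltransferase and N-glycan genes 17 of 20 (median -0.50). The COPII coat and ER exit genes had 24 of 27 lower (median -0.41), and ER-associated degradation 11 of 16 (median -0.30, 8 with summed pairs). The exception that rose was Ero1l, the oxidase that recharges disulfide isomerases and a gene also listed with hypoxia, at 1359 to 1411 CPM in KO and 1068 to 1154 CPM in WT.

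Among the folding genes, Dnajb9 (chr12:44205559-44210326, minus strand), an ER co-chaperone of BiP, had 6.24, 6.49, 6.58 and 6.92 CPM in KO and 35.9, 34.2, 40.3 and 36.3 CPM in WT. The groups did not overlap, and the mean was 5.59-fold lower in KO (log2 difference -2.48 ± 0.09, adjusted p = 1.11e-16). Hyou1, a large ER chaperone, had 60.2, 60.002, 57.1 and 58.3 CPM in KO and 162, 167, 164 and 167 CPM in WT, a log2 difference of -1.49 ± 0.05. Creld2, a secreted ER stress protein, had 26.3 to 27.6 CPM in KO and 71.8 to 76.6 CPM in WT (-1.47 ± 0.04, adjusted p = 1.36e-18). For both genes the KO values lay within a narrow range, well under the lowest WT value. Hspa5, which encodes BiP itself, stood at 1561 to 1904 CPM in KO and 1953 to 2192 CPM in WT, a log2 difference of -0.25 ± 0.07 (adjusted p = 0.00690, but 0.148 with summed pairs). It was picked out after its values were seen, as the best known chaperone of the list.

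The largest proportional fall among the disulfide isomerases was that of Pdia5 (chr16:35397312-35490873, minus strand), with 0.201, 0.300, 0.294 and 0.106 CPM in KO and 6.08, 6.32, 5.41 and 5.82 CPM in WT. That is a log2 difference of -4.69 ± 0.22 (adjusted p = 3.29e-14), from a gene of low level in WT and near the limit of counting in KO. Txndc5, a thioredoxin-domain isomerase, had 37.0 to 42.0 CPM in KO and 102 to 110 CPM in WT. Txndc11, a membrane-bound family member, had 13.4 to 14.3 CPM in KO and 30.0 to 37.1 CPM in WT. Neither gene overlapped between genotypes, with log2 differences of -1.40 ± 0.06 and -1.26 ± 0.06.

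The import and glycosylation genes changed by smaller but uniform amounts. Sec61a1, the pore subunit of the import channel, had 102 to 109 CPM in KO and 219 to 230 CPM in WT (log2 difference -1.08 ± 0.04, adjusted p = 1.96e-15), and the signal peptidase subunit Spcs2 had 71.8 to 81.2 CPM in KO and 160 to 165 CPM in WT (-1.08 ± 0.04). Stt3a, the catalytic subunit of the co-translational oligosaccharyltransferase, was 1.91-fold lower, its partner Ostc 2.06-fold lower, and Gmppb, which makes the GDP-mannose used in glycan assembly, 2.04-fold lower. None of these 5 genes had a KO library at or above a WT library.

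Among export genes the COPII cargo adaptor Sec24d (chr3:123267455-123365641, plus strand) had 12.3, 11.6, 12.3 and 11.7 CPM in KO and 47.5, 46.6, 49.2 and 46.9 CPM in WT. Even the lowest WT value was more than 3 times the highest KO value, and the log2 difference was -1.99 ± 0.09 (adjusted p = 2.94e-14). Kdelr3, a receptor that returns escaped ER proteins, had 0.853 to 0.937 CPM in KO and 1.90 to 2.76 CPM in WT, and Surf4, a cargo receptor, had 255 to 275 CPM in KO and 471 to 504 CPM in WT. In the degradation list Selenos, a selenoprotein of the retrotranslocation complex, had 24.6 to 27.4 CPM in KO and 67.2 to 69.4 CPM in WT (-1.40 ± 0.06). Syvn1, the ubiquitin ligase of that complex, was 1.89-fold lower, and Edem2, which trims mannose from misfolded glycoproteins, 1.70-fold lower.

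**Figure D2:**
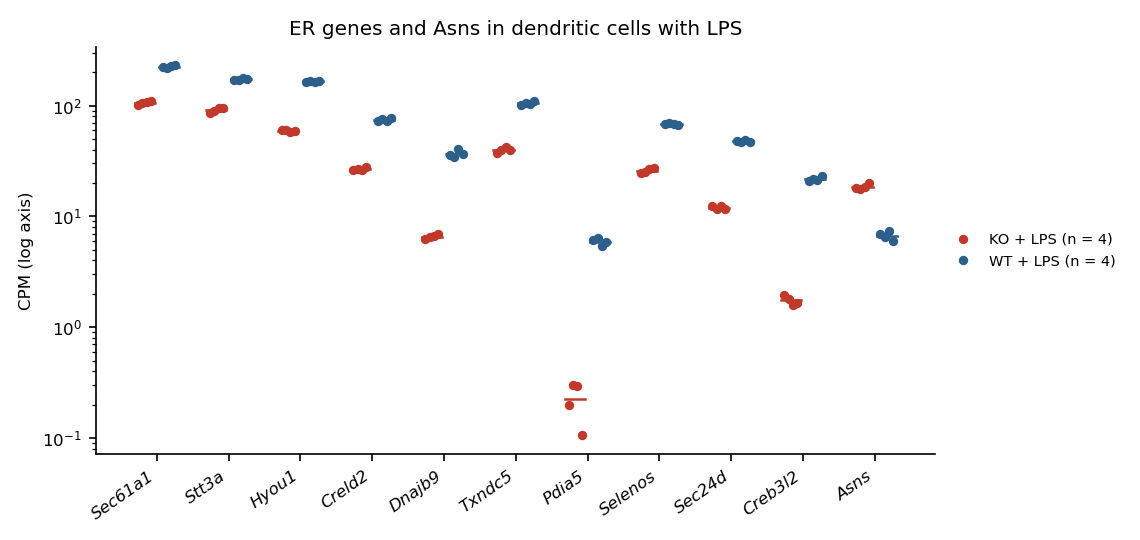
Level in CPM (log axis) of 10 genes of ER import, folding, degradation, export and regulation and of Asns, with a point for each library, KO + LPS at left and WT + LPS at right of each gene, and a line at the mean of 4. Of the genes drawn, Asns is the one with the KO libraries above the WT libraries, at 17.7 to 20.003 CPM against 6.04 to 7.35 CPM.

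Of the 93 ER genes that fell, 73 had a RefSeq promoter window (250 bases before to 50 after the start). An XBP1 element was present in 28 of these (38.4%), against 7.01% of the 10444 tested genes with a window and 4.78% of all 27025 genes with a window. The ER stress response element (CCAAT, then 9 bases of any kind, then CCACG, either strand) was present in 9 of the 73 (12.3%), against 0.163% of tested genes. Among all 82 tested members of the 6 ER lists with a window, whether they fell or not, the shares were alike, with an XBP1 element in 31 (37.8%) and the ER stress response element in 10 (12.2%). The windows of Dnajb9 and Creb3l2 held neither set of letters. These are matches of letters in short windows and no measurement of binding.

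The transcription factors and sensors of the ER membrane also shifted, with 6 of 10 lower and 2 higher. Ern1, the targeted gene itself, was among those counted as higher (log2 difference 0.46). Creb3l2 (chr6:37327255-37442146, minus strand), a membrane-bound transcription factor released in the Golgi and known for driving secretory genes, had 1.96, 1.797, 1.58 and 1.64 CPM in KO and 20.8, 21.8, 21.3 and 23.1 CPM in WT. No KO library came near the lowest WT library, and the mean was 12.4-fold lower (log2 difference -3.64 ± 0.11, adjusted p = 4.31e-18). Atf6, which encodes the ATF6 stress sensor, fell to 36.8 to 42.3 CPM in KO, against 54.6 to 61.4 CPM in WT.

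Genes of the PERK and ATF4 branch were mixed. Of 14 stress factors 6 rose and 3 fell (4 and 2 with summed pairs), with a median log2 difference of 0.11. Vldlr, a lipoprotein receptor known as a target of ATF4, had 12.9 to 13.9 CPM in KO and 3.80 to 5.88 CPM in WT (1.47 ± 0.15, adjusted p = 7.59e-08). Atf5, a stress-induced transcription factor, had 14.8 to 17.7 CPM in KO and 10.3 to 12.1 CPM in WT. Gdf15, a stress-induced hormone, moved the other way, with 2.30 to 3.12 CPM in KO and 3.51 to 5.30 CPM in WT (-0.70 ± 0.17, adjusted p = 0.00249).

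Amino acid synthesis genes rose in 6 of 11 cases with none lower (median 0.22). Asns (chr6:7675169-7693254, minus strand), the asparagine synthetase, had 18.1, 17.7, 18.5 and 20.003 CPM in KO and 6.89, 6.45, 7.35 and 6.04 CPM in WT. All KO libraries were above all WT libraries, with a log2 difference of 1.47 ± 0.07 (adjusted p = 9.08e-14). Phgdh, the first enzyme of serine synthesis, had 16.0 to 17.7 CPM in KO and 9.21 to 10.9 CPM in WT, and Shmt2, which turns serine to glycine in mitochondria, was 1.39-fold higher. Of 18 cytosolic aminoacyl-tRNA synthetases, which charge tRNAs with amino acids, 12 rose and 3 fell (7 and 1 with summed pairs, median 0.20). The isoleucine enzyme gene Iars had 15.5 to 18.9 CPM in KO and 9.63 to 13.0 CPM in WT, and the tyrosine enzyme gene Yars was 1.44-fold higher. Of 10 amino acid transporters 1 rose and 2 fell, the one that rose being the glutamine transporter gene Slc1a5 (0.44 ± 0.07, adjusted p = 2.48e-05). The share of transporters called was 30% (median -0.04), against 33.9% of all tested genes. Of the 18 synthesis and synthetase genes that rose, 12 had a promoter window, and 5 of these (41.7%) held the C/EBP-ATF letters, against 9.76% of tested genes. Among all 19 tested genes of these lists with a window 7 held them (36.8%).

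mRNAs reported elsewhere as substrates of IRE1-dependent decay did not rise as a group. Of 17 tested, 2 rose and 7 fell (1 and 4 with summed pairs), with a median log2 difference of -0.18. Scara3, a scavenger receptor, rose, with 5.25 to 6.49 CPM in KO and 2.09 to 2.46 CPM in WT (1.38 ± 0.16, adjusted p = 3.21e-07). Pdgfrb, a growth factor receptor also listed with stromal markers, fell, with 2.12 to 2.43 CPM in KO and 4.04 to 4.68 CPM in WT. Rpn1, a subunit of the oligosaccharyltransferase counted with the ER genes too, fell by 0.81 on the log2 scale.

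**Figure D3:**
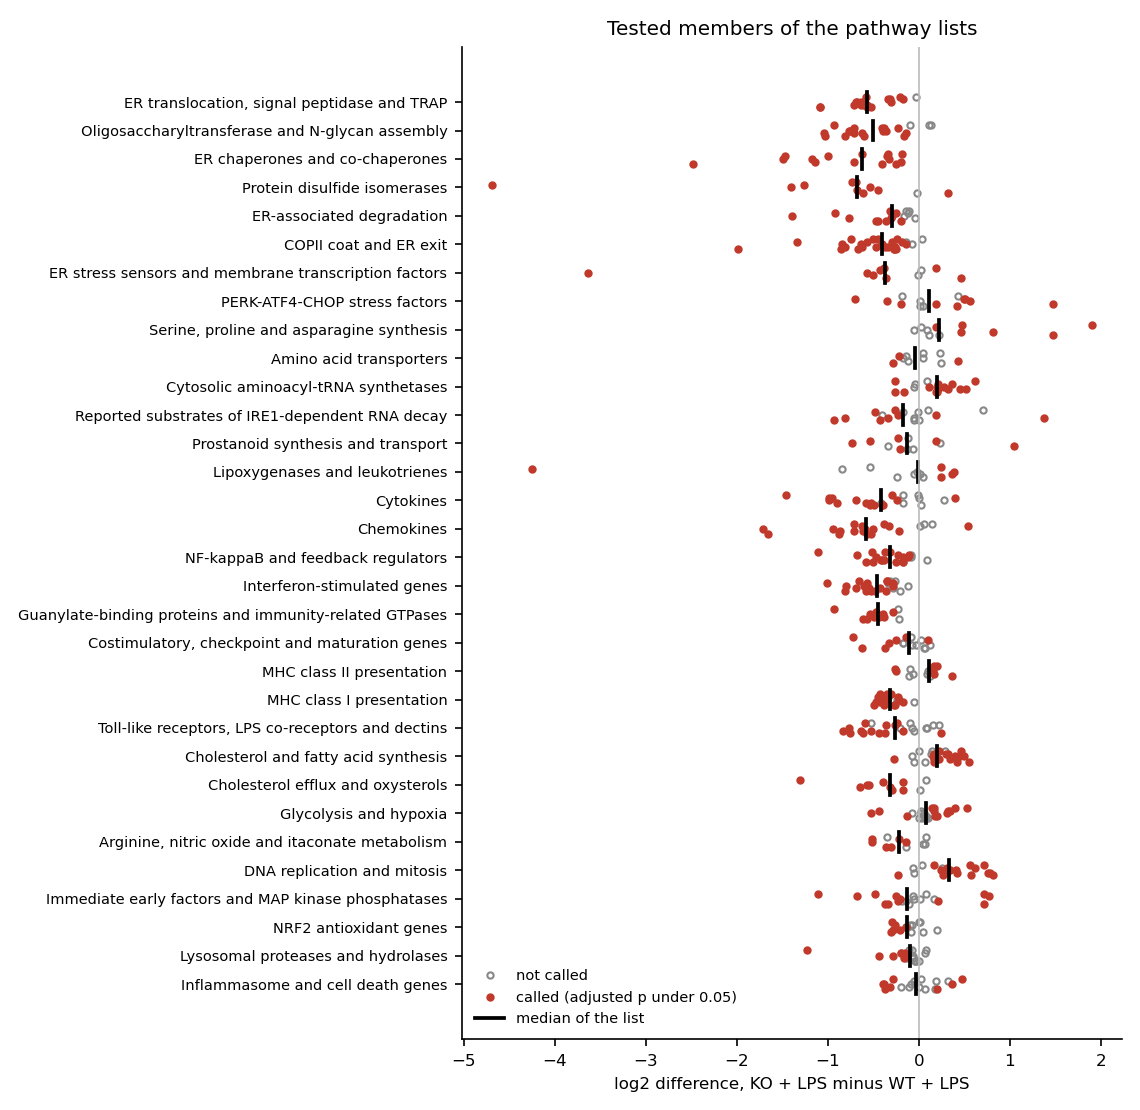
Log2 difference between KO + LPS and WT + LPS of each tested member of the 32 pathway lists with 10 or more tested members. Filled points passed an adjusted p of 0.05, open points did not, and the black bar is the median of the list; the ER lists at the top have medians between -0.68 and -0.30, against 0.01 for all genes.

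The prostaglandin genes split by enzyme. Of 11 tested genes of prostanoid synthesis and transport 4 fell and 2 rose (2 and 1 with summed pairs). Ptgs2 (chr1:150100031-150108227, plus strand), the inducible cyclooxygenase COX-2, had 626, 637, 714 and 708 CPM in KO and 1032, 1039, 1227 and 1154 CPM in WT. In both genotypes replicates 3 and 4 were higher than 1 and 2, and every KO value stayed under every WT value. The log2 difference was -0.73 ± 0.10 (adjusted p = 3.14e-06, and 0.00747 with summed pairs).

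Ptges (chr2:30889471-30929863, minus strand), the microsomal prostaglandin E synthase, had 75.6, 75.7, 77.4 and 77.3 CPM in KO and 114, 110, 105 and 113 CPM in WT, a log2 difference of -0.53 ± 0.07 (adjusted p = 1.44e-06). Ptgs1 (chr2:36230426-36252272, plus strand), the constitutive cyclooxygenase COX-1, went the other way, with 77.2, 77.1, 68.4 and 68.7 CPM in KO and 34.9, 37.1, 35.8 and 33.2 CPM in WT. The Ptgs1 sets were far apart, with a log2 difference of 1.05 ± 0.07 (adjusted p = 1.11e-11, and 0.000114 with summed pairs). Its means were 72.8 ± 4.999 CPM in KO and 35.2 ± 1.65 CPM in WT (SD, n = 4 each).

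Pla2g4a (chr1:149829618-149961290, minus strand), the cytosolic phospholipase A2, had 142, 146, 169 and 176 CPM in KO and 177, 179, 190 and 183 CPM in WT. Its KO replicate 4 came close to the lowest WT library, without overlap. The log2 difference of -0.20 ± 0.06 passed with all libraries (adjusted p = 0.00705) and not with summed pairs (0.122) or with replicates 3 and 4 alone (0.152). Of 5 tested prostanoid receptors 1 fell, Ptger2, a receptor for prostaglandin E2, at 5.19 to 5.87 CPM in KO and 6.14 to 6.85 CPM in WT (adjusted p = 0.0139, but 0.135 with summed pairs). That is 20% of the receptors, against 33.9% of all tested genes in either direction and 18.2% that fell.

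The lipoxygenase and leukotriene genes were dominated by Alox15, the 15-lipoxygenase, with 0.557 to 0.849 CPM in KO and 11.7 to 13.4 CPM in WT (log2 difference -4.25 ± 0.15, adjusted p = 7.73e-17). Alox15 is also one of the 10 eosinophil markers, whose summed level was 48.5 to 57.6 CPM in KO and 1008 to 1082 CPM in WT, and the part of that list in the Alox15 value was not tested. Of the other 11 genes of this list 4 rose and none fell, and with summed pairs none of them was called. Ltb4r1, a leukotriene B4 receptor, was one of these, at 19.0 to 21.4 CPM in KO and 14.005 to 17.2 CPM in WT (adjusted p = 0.00878, and 0.114 with summed pairs).

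**Figure D4:**
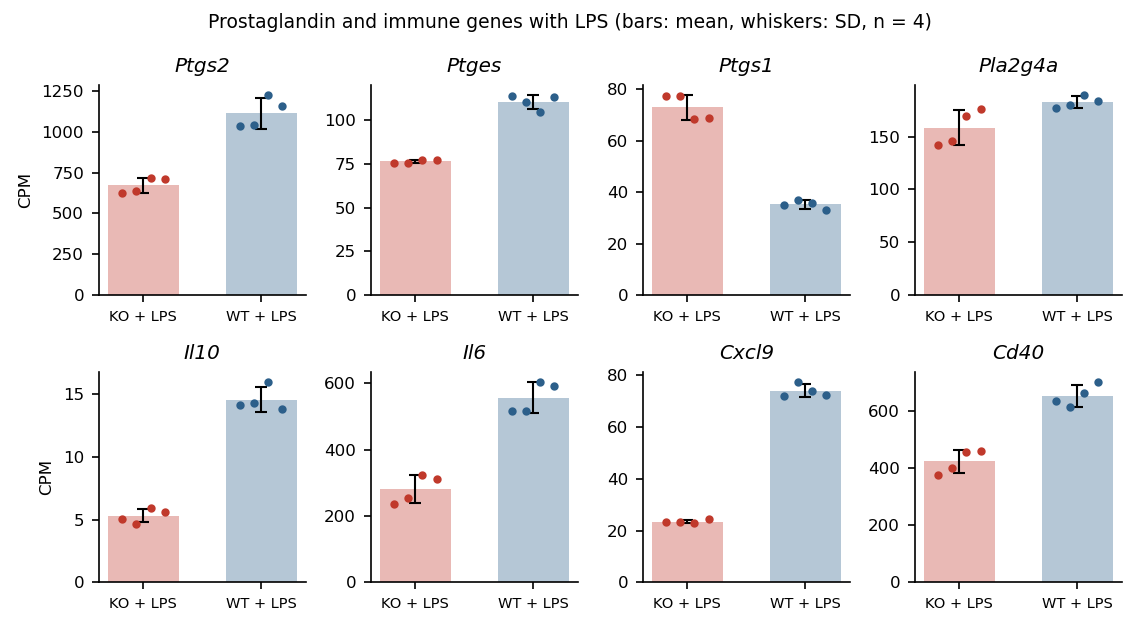
Level in CPM of 4 prostaglandin genes (top) and 4 immune genes (bottom), with KO + LPS at left and WT + LPS at right. Points are libraries, bars are means of 4 and whiskers are SD; of the genes drawn, Ptgs1 is higher in KO, with means of 72.8 CPM in KO and 35.2 CPM in WT.

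Genes of the inflammatory response to LPS were mostly lower in KO. Of 22 cytokine genes 14 fell and 1 rose (median -0.41), and of 20 chemokine genes 16 fell and 1 rose (median -0.58). With summed pairs 12 cytokine and 13 chemokine genes fell. Il10, an anti-inflammatory cytokine, had 5.09, 4.69, 5.92 and 5.60 CPM in KO and 14.2, 14.3, 16.0 and 13.8 CPM in WT, a log2 difference of -1.45 ± 0.10 (adjusted p = 2.60e-11). Il6, a pro-inflammatory cytokine, had 238, 253, 325 and 312 CPM in KO and 516, 517, 604 and 593 CPM in WT, a log2 difference of -0.98 ± 0.09 (adjusted p = 6.33e-09). Replicates 3 and 4 were higher than 1 and 2 for Il6 in both genotypes, and the genotypes did not overlap for either gene. Csf3, which encodes the granulocyte growth factor G-CSF, was 1.98-fold lower, with 2.43 to 3.08 CPM in KO and 4.90 to 5.90 CPM in WT. The exception was Lif, an IL-6 family cytokine, at 18.8 to 22.6 CPM in KO and 15.3 to 16.98 CPM in WT (adjusted p = 0.00573, but 0.128 with summed pairs).

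Cxcl9 (chr5:92321347-92328079, minus strand), an interferon-induced chemokine that draws T cells, had 23.2, 23.4, 23.02 and 24.3 CPM in KO and 72.0, 77.4, 73.9 and 72.2 CPM in WT. The mean was 3.15-fold lower in KO (log2 difference -1.65 ± 0.11, adjusted p = 1.02e-11), with no KO library above 24.3 CPM. Ccl12, a monocyte-attracting chemokine, had 1.08 to 1.82 CPM in KO and 4.34 to 5.39 CPM in WT, and Cxcl11, which shares its receptor with Cxcl9, was 1.92-fold lower. Ccl17, a chemokine that dendritic cells use to attract T cells through CCR4, rose instead, with 2828 to 3056 CPM in KO and 1968 to 2055 CPM in WT (0.54 ± 0.08, adjusted p = 5.57e-06).

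Of 21 genes of NF-κB and its feedback regulators 17 fell and none rose (median -0.32, 13 with summed pairs). The phosphatases Dusp2 and Dusp1, which switch off MAP kinases, had log2 differences of -1.11 ± 0.12 and -0.68 ± 0.08, with Dusp1 at 41.1 to 43.3 CPM in KO and 61.8 to 73.4 CPM in WT. Trib1, a pseudokinase that directs protein degradation, was 1.496-fold lower. Of 23 Toll-like receptor, co-receptor and dectin genes 13 fell and 1 rose (10 and 1 with summed pairs). Both partners of TLR4 in LPS binding fell: Cd14 had 471 to 505 CPM in KO and 819 to 860 CPM in WT (-0.76 ± 0.07, adjusted p = 1.47e-08), and Ly96, which encodes MD-2, had 3.79 to 4.95 CPM in KO and 6.31 to 8.66 CPM in WT. Tlr3, the receptor for double-stranded RNA, was 1.70-fold lower. Ticam2, an adaptor of TLR4, rose slightly, at 77.0 to 80.4 CPM in KO and 64.4 to 69.9 CPM in WT (0.24 ± 0.04). Cd14 is also on the macrophage and monocyte list, of which 13 of 18 members fell (median -0.38), with a summed level without Lyz2 of 3680 to 3879 CPM in KO and 5249 to 5476 CPM in WT, and the part of that list in the Cd14 value was not tested.

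Interferon-stimulated genes were lower in KO by a like median whichever replicates were used, while the number called varied. Of 26 tested, 19 fell and none rose, against 4 with summed pairs, and the median log2 difference was -0.455 in both. With replicates 1 and 2 alone 26 fell (median -0.48), and with replicates 3 and 4 alone 23 (median -0.39). Ifit3b, an antiviral protein gene, had 40.6 to 52.3 CPM in KO and 82.5 to 98.2 CPM in WT (log2 difference -1.01 ± 0.15, adjusted p = 9.67e-06, and 0.0128 with summed pairs). Its neighbour Ifit3 had 525 to 656 CPM in KO and 944 to 1082 CPM in WT (adjusted p = 0.00301, and 0.109 with summed pairs), and reads of the 2 copies may be shared. Cmpk2, a mitochondrial nucleotide kinase induced by interferon, had 770 to 1062 CPM in KO and 1363 to 1854 CPM in WT (adjusted p = 0.00224, and 0.0807 with summed pairs). Of 12 guanylate-binding and immunity-related GTPases 10 fell (3 with summed pairs, median -0.45). Tgtp1, which attacks the vacuoles of intracellular parasites in mice, was 1.91-fold lower, and Irgm1, a regulator of these GTPases, 1.53-fold lower (adjusted p = 0.000683, and 0.0543 with summed pairs).

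Antigen presentation differed by class. Of 18 class I genes 16 fell and none rose (median -0.32, 12 with summed pairs), with the nonclassical H2-M3 at 62.3 to 68.7 CPM in KO and 88.3 to 98.6 CPM in WT and H2-Q7 1.39-fold lower. Class I genes are near-identical copies in part, so their counts are less certain. Of 14 class II genes 6 rose and 2 fell (1 and 0 with summed pairs), with H2-Aa, the class II alpha chain, at 1627 to 1870 CPM in KO and 1287 to 1471 CPM in WT (0.37 ± 0.05, adjusted p = 3.64e-06). Of 16 costimulatory and maturation genes 6 fell and 1 rose, a share of 43.75%, against 33.9% of all tested genes. Cd40, through which T cells license dendritic cells, had 378, 400, 457 and 462 CPM in KO and 636, 615, 665 and 704 CPM in WT. The Cd40 groups were apart (log2 difference -0.63 ± 0.08, adjusted p = 9.32e-07), and the inhibitory ligand Cd200 was 1.65-fold lower.

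Lipid genes moved in opposite directions by pathway. In the list of cholesterol and fatty acid synthesis genes, 17 of 25 rose and 1 fell (median 0.20), or 8 and 1 with summed pairs. Scd2, a fatty acid desaturase, had 588 to 666 CPM in KO and 411 to 473 CPM in WT (0.50 ± 0.05, adjusted p = 1.47e-07), Fasn, the fatty acid synthase, had 34.4 to 41.8 CPM in KO and 25.8 to 30.0 CPM in WT, and Dhcr7, the last enzyme of cholesterol synthesis, was 1.47-fold higher. The gene that fell was Insig1, the ER protein that holds back the sterol-sensing factors, at 46.6 to 49.0 CPM in KO and 53.4 to 60.01 CPM in WT. Of 11 genes of cholesterol efflux and oxysterols 9 fell and none rose (5 with summed pairs, median -0.31). Ch25h (chr19:34473778-34475164, minus strand), which makes 25-hydroxycholesterol, had 54.9, 54.3, 71.5 and 72.3 CPM in KO and 151, 142, 158 and 175 CPM in WT. The highest KO library had less than the lowest WT library (log2 difference -1.31 ± 0.17, adjusted p = 2.25e-06). Apoe, the apolipoprotein that accepts exported cholesterol, was 1.56-fold lower, and Nr1h3, the oxysterol receptor LXRα, 1.49-fold lower.

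Among 24 glycolysis and hypoxia genes, 10 were higher and 3 lower (3 and 2 with summed pairs). Gpi1, the glucose phosphate isomerase, had 1677 to 1972 CPM in KO and 1178 to 1324 CPM in WT, while Pfkfb3, which makes an activator of glycolysis, had 252 to 272 CPM in KO and 365 to 387 CPM in WT (log2 differences 0.53 ± 0.07 and -0.52 ± 0.07). Of 11 genes of arginine, nitric oxide and itaconate metabolism 6 fell and none rose (2 with summed pairs). Among them were Gch1, which starts the synthesis of the nitric oxide synthase cofactor, 1.43-fold lower, and the arginase Arg2, also 1.43-fold lower. Acod1, which makes itaconate, had 3522 to 4089 CPM in KO and 4622 to 5163 CPM in WT (adjusted p = 0.00158, and 0.0895 with summed pairs). Of 15 NRF2 antioxidant genes 6 fell (1 with summed pairs). The share called was 40%, against 33.9% of all tested genes in either direction and 18.2% that fell.

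Genes of DNA replication and mitosis were higher, with 15 of 20 up and 1 down (median 0.33, 10 and 0 with summed pairs). Ccnb1, the mitotic cyclin B1, had 6.44 to 8.09 CPM in KO and 3.77 to 4.38 CPM in WT (0.81 ± 0.10, adjusted p = 9.52e-07). Bub1, a spindle checkpoint kinase, was 1.72-fold higher, and Top2a, a topoisomerase of dividing cells, had 39.4 to 43.0 CPM in KO and 22.8 to 25.8 CPM in WT. Mki67, the gene of the proliferation antigen Ki-67, was the exception at 111 to 117 CPM in KO and 125 to 137 CPM in WT, and its adjusted p of 0.0232 was 0.182 with summed pairs and 0.0503 to 0.0635 without KO replicate 3, KO replicate 4 or WT replicate 2. Myc, a growth-promoting transcription factor, had 17.7, 17.6, 17.7 and 18.1 CPM in KO and 9.70, 10.5, 10.5 and 10.7 CPM in WT. These sets were tight and apart (log2 difference 0.78 ± 0.05, adjusted p = 5.23e-12). Of the 20 immediate early factors and MAP kinase phosphatases with which it is listed 4 rose and 8 fell, and Dusp4, another nuclear phosphatase, was 1.65-fold higher.

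Of 20 lysosomal genes 7 fell and none rose (2 with summed pairs, median -0.09). The share called was 35%, against 33.9% of all tested genes in either direction and 18.2% that fell. Ctsk, a collagen-degrading cathepsin, had 36.5 to 45.4 CPM in KO and 90.3 to 101 CPM in WT (-1.23 ± 0.23, adjusted p = 0.000192), and Ctsc, which activates granule proteases, was 1.36-fold lower. Of 18 inflammasome and cell death genes 5 fell and 3 rose, or 5 and 1 with summed pairs. The share called was 44.4%, against 33.9% of all tested genes. Casp4, the caspase that binds cytosolic LPS (Casp11 in older mouse usage), had 133 to 159 CPM in KO and 181 to 197 CPM in WT (adjusted p = 0.000479, and 0.0488 with summed pairs).

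Genes outside the pathway lists gave some of the largest rises. Clec4f (chr6:83644542-83656187, minus strand), a C-type lectin known from Kupffer cells, had 14.6, 15.6, 15.9 and 16.0 CPM in KO, while 3 WT libraries had no count and 1 had a single count. Summed over libraries that is 2408 counts in KO and 1 count in WT, a depth-adjusted ratio of 2270.3 with a 95% interval of 407 to 89709 that covers counting error only. Of the other genes on the macrophage and monocyte list, Vsig4 had 1 count in KO and 0 in WT. Timd4 had 24 counts in KO and 11 in WT, and Cd163 had 4 and 5. Members with lower means in KO included Marco (290 CPM in KO, 470 in WT), C1qa (57.0 and 105) and Adgre1 (221 and 289). Of the 18 tested members 13 fell and 2 rose, with Clec4f among the latter.

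Commd10 (chr18:46958816-47234284, plus strand), a member of a family of endosomal sorting proteins, had 44.5, 45.4, 49.8 and 49.8 CPM in KO and 14.3, 15.2, 14.6 and 14.4 CPM in WT. All KO libraries were above 44 CPM and all WT libraries under 16 CPM, with a log2 difference of 1.70 ± 0.05 (adjusted p = 6.04e-19). St6gal1, a sialyltransferase of the Golgi, had 18.6 to 23.4 CPM in KO and 4.87 to 7.25 CPM in WT, and Thy1, a surface glycoprotein best known on T cells, had 38.4 to 46.0 CPM in KO and 12.9 to 14.3 CPM in WT. The stefin genes Stfa1, Stfa2, Stfa2l1 and Stfa3, intracellular inhibitors of cysteine proteases, were 3.84-fold, 2.61-fold, 2.83-fold and 2.45-fold higher. They are near-identical neighbours on chromosome 16 and may share reads, so their counts are not independent, and Stfa1 was also on the neutrophil list. Wdfy1, an endosomal adaptor, was 2.63-fold higher (adjusted p = 0.00173, but 0.0814 with summed pairs).

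The genotype difference with LPS was set against that in untreated cells and against that with zymosan. Both tests used the KO and WT samples of each condition and ask whether the log2 difference itself differed. Against untreated cells 1482 genes were called (10.4%), 654 (4.61%) with a more positive and 828 (5.84%) with a more negative difference with LPS. Against zymosan 209 genes were called (1.47%), 90 more positive (0.634%) and 119 more negative (0.839%). The counts were far lower with summed pairs, which called 3 and 4 genes against untreated cells and 0 and 0 against zymosan. In that setting edgeR gave 1726 genes against untreated cells and 828 against zymosan at an unadjusted p under 0.05. Where nothing differs, a share of about 0.05 of the 14188 tested genes would pass that unadjusted threshold. DESeq2 on the separate libraries called 1790 and 470. Because of these lower counts, the statements below say which of the named gaps also passed with summed pairs. The 3 that did were all more positive with LPS, and the 4 more negative ones called with summed pairs are not named below.

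Of the genes named above, Commd10, Myc and Ptgs1 had a genotype difference that was larger with LPS than without stimulus in both settings. Commd10 differed between KO and WT by 1.70 with LPS, by 1.11 with zymosan and by 0.40 in untreated cells (log2), and the LPS difference exceeded that in untreated cells by 1.29 ± 0.06 (adjusted p = 2.10e-12, and 0.000408 with summed pairs). Myc differed by 0.78 with LPS and by -0.05 in untreated cells, a gap of 0.83 (adjusted p = 1.49e-08, and 0.0104 with summed pairs). The Myc gap to zymosan was not called. Ptgs1 differed by 1.05 with LPS, by 0.52 with zymosan and by 0.06 in untreated cells, a gap to untreated cells of 0.99 ± 0.09 (adjusted p = 5.81e-07, and 0.0486 with summed pairs).

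Other gaps passed with the libraries separate but not with summed pairs. Ptgs2 differed by -0.73 with LPS and by -0.06 in untreated cells (gap -0.67 ± 0.15, adjusted p = 0.00540, and 0.247 with summed pairs). Dnajb9 differed by -2.48 with LPS and by -1.45 in untreated cells (gap -1.03 ± 0.12, adjusted p = 2.08e-05, and 0.0889). Hyou1, Creld2, Selenos and Sec61a1 had gaps to untreated cells of -0.56, -0.54, -0.69 and -0.40. Against zymosan the Dnajb9 gap was -0.30 ± 0.13 and was not called (adjusted p = 0.234). The gaps of Ptgs2 and Selenos to zymosan were not called either. Those of Hyou1, Creld2 and Sec61a1 were called with the libraries separate. With zymosan 22.1% of tested genes were called between KO and WT, 10.6% higher and 11.4% lower, and without stimulus 9.95%, 4.31% higher and 5.64% lower. Across the 6 ER lists 87 of 107 genes were lower in KO cells with zymosan and 81 in untreated KO cells, with medians of -0.41 and -0.33. Of these 107, 45 had a more negative difference with LPS than without stimulus, against 5.84% of tested genes. The sterol and fatty acid list had 17 of 25 genes with a more positive difference with LPS than without stimulus, against 4.61% of tested genes. The NF-κB list had 14 of 21 and the class I list 12 of 18 with a more negative difference. These list counts come from the separate libraries. Summed pairs called 3 more positive and 4 more negative genes over all tested genes. Calhm6, a calcium homeostasis channel family member induced by interferon, differed by -1.09 with LPS, by -0.11 with zymosan and by 0.79 in untreated cells (gap to untreated -1.88 ± 0.40, adjusted p = 0.00390, and 0.147). For Ptges the gap of -0.17 ± 0.10 did not pass (adjusted p = 0.302), and neither did that of Pla2g4a at -0.23 ± 0.08 (adjusted p = 0.0736).

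**Figure D5:**
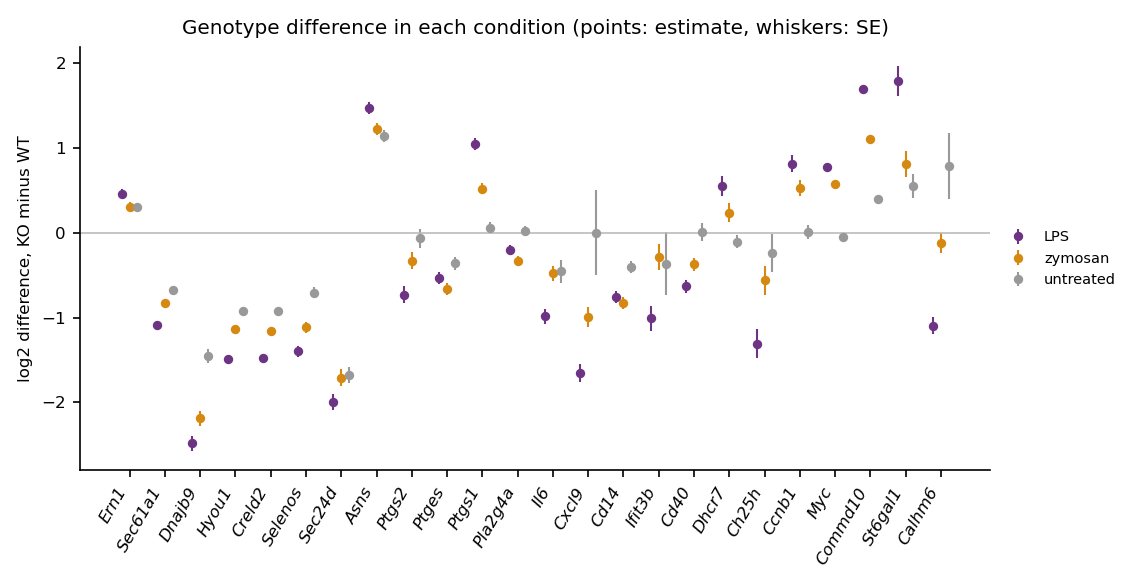
Log2 difference between KO and WT for 24 genes under each condition (LPS, zymosan and untreated, left to right), as points with the standard error from the model (n = 4 in each group). The LPS point of Commd10 is at 1.70, against 0.40 in untreated cells, and that of Ptgs1 is at 1.05, against 0.06.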

How the data were processed

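Messenger RNA of 24 dendritic cell samples was sequenced. The authors deposited 1 table of whole-number counts per gene, for 38887 Ensembl genes, and these counts were used unchanged. The submitters' processing notes name build mm10 and the tools RSEM 1.2.31, Bowtie2 and DESeq2, without their roles. RSEM shares out reads that match several genes, so counts of near-identical copies are uncertain. Whether strand was used in counting is not given in the sources used here.

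Samples were grouped by the labels for genotype and treatment. One edgeR 4.0.16 quasi-likelihood model (R 4.3.3) with a mean for each of 6 groups was fitted to all 24 samples, with TMM factors and filterByExpr, which kept 14188 genes. It gave the KO minus WT contrast with LPS and 2 contrasts of that difference with the ones in untreated and zymosan-treated cells. P-values were adjusted by Benjamini-Hochberg over all tested genes, and a gene was called under 0.05. CPM used the TMM-scaled library totals, errors are SE of the model or SD of 4 samples, and the totals of 36778141 to 43253453 counts set the counting precision. The fit was tested on simulated data.

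GENCODE M21 (GRCm38) supplied names for 37570 identifiers (96.6%) and the gene positions. The 43 gene lists (687 genes, 636 of them tested), the promoter elements and the rule for named genes were chosen with earlier results of these data known. The rule took Ern1, Xbp1 and 4 prostaglandin genes, up to 3 called members of each list with the largest differences at 1 CPM or more (1 for each cell type), the 12 largest rises and falls at 5 CPM or more without overlap between groups, and the largest called differences between conditions. Of the 105 genes reported under each setting, 7 were named after their values were seen, as exceptions to their list or, for Hspa5, as its best known member, and a few marker levels are given as descriptions. Lists were described by counts and medians, with no set test. Alternatives were DESeq2 1.42.0, its size factors, no filter, a replicate block, the 8 LPS samples alone, summed or single replicate pairs, summed pairs with the pair as a block (chosen after seeing the data), and leaving out each LPS library.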

Additional observations from a re-analysis of the deposited data

Results flagged for a closer look

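In 8 of 210 sets of 4 libraries 1 library stood apart from the nearest of the other 3 by a share of the range above Dixon's 95% critical value, which chance gives in about 1 in 20 sets. These were the WT replicate 4 values of Phgdh (10.9 CPM) and Clec4f (0.0272 CPM, a single count), the WT replicate 3 value of Lif (16.98 CPM) and the WT replicate 1 value of Prg2 (599 CPM). In KO they were the replicate 4 values of Trib1 (4.83 CPM) and Myc (18.1 CPM), the replicate 1 value of Cd14 (471 CPM) and the replicate 2 value of Dusp4 (25.1 CPM). None of these libraries reached the range of the other genotype.

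The KO minus WT log2 difference with LPS was tested against that in untreated cells and against that with zymosan. Against untreated cells, the difference was more negative with LPS for the ER genes Dnajb9 (by -1.03), Selenos (-0.69), Hyou1 (-0.56), Creld2 (-0.54) and Sec61a1 (-0.40). It was also more negative for the immune and lipid genes Calhm6 (-1.88), Cxcl9 (-1.66), Ch25h (-1.07), Ptgs2 (-0.67), Cd40 (-0.64), Il6 (-0.53) and Cd14 (-0.36). It was more positive for Commd10 (1.29), St6gal1 (1.24), Ptgs1 (0.99), Myc (0.83), Ccnb1 (0.80), Dhcr7 (0.66) and Asns (0.33). With summed pairs the differences of Commd10, Myc and Ptgs1 were still called. Those of Asns, Il6, Cxcl9 and Cd14 were lost in 1 or more of the fits that left out a single LPS library.

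Against zymosan, the difference was more negative with LPS for Calhm6 (by -0.98), Cxcl9 (-0.66), Il6 (-0.51), Hyou1 (-0.36), Creld2 (-0.31) and Sec61a1 (-0.25) and more positive for St6gal1 (0.98), Commd10 (0.59) and Ptgs1 (0.53). None of these 9 was called with summed pairs, where the smallest adjusted p was 0.715, for Commd10. Those of Sec61a1, Il6, Cxcl9 and St6gal1 were also lost in 1 or more of the fits that left out a single LPS library.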

How the results depend on the processing

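Summed pairs gave 863 higher and 1152 lower with LPS, 3 and 4 against untreated cells and 0 and 0 against zymosan. A threshold of 2-fold left 146 and 196. Replicates 1 and 2 alone gave 1395 and 1589 against untreated cells and 757 and 891 against zymosan, where replicates 3 and 4 alone gave 208 and 402 and DESeq2 gave 170 and 300. The same-numbered LPS samples correlated at 0.02 to 0.07 (r of deviations from the group means), so the numbers do not pair them, but replicates 1 and 2 and replicates 3 and 4 split alike in both genotypes: the 8 correlations within these pairs of numbers were all positive (0.0169 to 0.103) and the 8 across them all negative (-0.104 to -0.0303). Summed pairs carried no term for this. With the pair (1 and 2, or 3 and 4) as a block, chosen after seeing the data, they gave 1348 and 1769 with LPS, 117 and 172 against untreated cells and 0 and 0 against zymosan, and 14 of 26 interferon-stimulated genes lower. The replicate block, shared by all groups, gave 2487 and 2889 with LPS, 1040 and 1356 against untreated cells and 394 and 609 against zymosan; nested in genotype it gave 1073 and 1482, and 417 and 688. Leaving out single LPS libraries gave 1855 to 2126 higher and 2202 to 2442 lower with LPS, 441 to 671 and 571 to 818 against untreated cells, and 22 to 99 and 24 to 122 against zymosan. All 8 of these fits called 3338 of the 4805 genes. Size factors, no filter and the LPS samples alone kept the LPS counts within 1.5 times.

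Of the 105 named genes, Xbp1, which was not called, changed sign (-0.0152 to 0.00528 over the leave-one-out fits), to 0.00424 with replicates 1 and 2, 0.000270, 0.00166 and 0.00528 without KO replicate 1, KO replicate 4 and WT replicate 4, and 0.00797 and 0.00793 with the LPS samples alone, without and with the block. Uncalled differences against zymosan turned for Ptges (-0.0337, replicates 1 and 2) and Cd14 (-0.0347, replicates 3 and 4). Summed pairs ended 11 calls with LPS, all given above (2 with the pair as a block), and DESeq2, size factors and the unfiltered fit ended none with LPS. The causes were not tested. Genes under about 1 CPM, such as Pdia5 in KO, are limited by counting.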
